A study of Mus musculus with 4 samples.

Results

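2i-RFP+ and 2i-RFP- are 2 of the 4 mouse embryonic stem cell samples of a bead array series, and this account sets the first against the second. Both were taken by their sample titles. Each was hybridised to 2 arrays, so the comparison rests on 4 of the 6 arrays, and 19982 of the 45281 probes entered it because their detection score reached 0.95 on at least 2 of those 4 arrays. Both samples are C57/B6 embryonic stem cells at passage 5, were derived under 2i, and were then grown without 2i on mouse embryonic fibroblast feeders. The names of their arrays begin alike, with 2imES#1, which leaves a shared line possible. What the RFP in the titles reports is not stated in the labels. The other samples were derived under standard conditions, on the same kind of feeder and with 1 array each. Of these, AFF204#21 is also C57/B6 and was at passage 11, while R1 is of strain 129 and was at passage 26. With 1 sample on each side no test between the samples is possible. The repeat arrays show only the technical spread, and a difference has no replicate check.

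2i denotes a pair of inhibitors, of the kinase MEK and of the kinase GSK3, which hold mouse stem cells in a naive state close to the early epiblast. Without the inhibitors, FGF signals move such cells towards the primed state of the later epiblast, where Fgf5 comes on. WNT signals act in the further step to the primitive streak, marked by the T-box factors T and Eomes. Imprinted genes are expressed from 1 parental allele. In the cluster around Cdkn1c, the long RNA Kcnq1ot1 is made from the paternal allele and silences its neighbours there, which leaves Cdkn1c, Phlda2 and Slc22a18 active on the maternal allele.

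The samples were nearly as alike as repeat arrays of 1 sample. Values below are log2 levels after background correction and quantile normalization, and differences are 2i-RFP+ minus 2i-RFP- in log2 units. Between 19143 and 19865 probes were detected per array over the 6 arrays, with median intensities of 59.3 to 63.2. The root mean square difference was 0.228 between the repeat arrays of 2i-RFP+ and 0.204 between those of 2i-RFP-. Across samples the 4 array pairs gave 0.210 to 0.245. After averaging the repeats the samples differed by 0.167, against 0.153 that the repeat arrays alone would give. Larger distances separated both from the standard-derived lines, with 0.452 and 0.455 to AFF204#21 and 0.609 and 0.616 to R1. Probes at least 1.5-fold apart numbered 401 and 250 between repeat arrays, and 285 to 575 between single arrays of different samples.

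**Figure D1:**
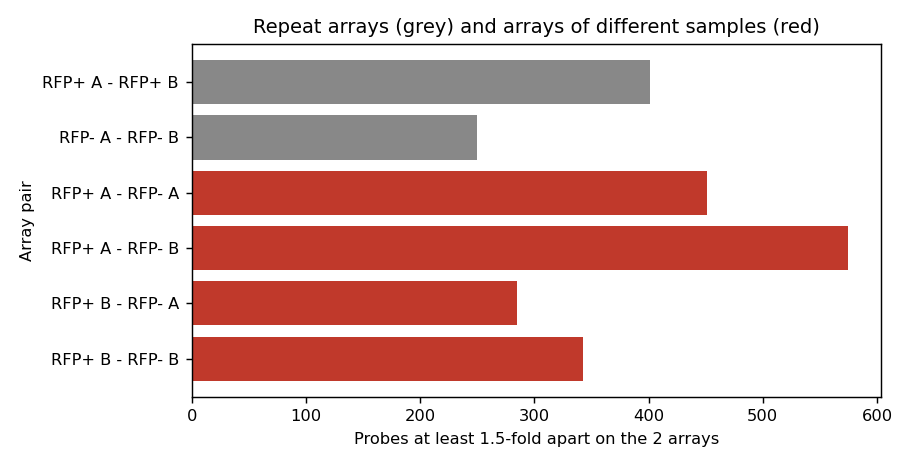
Number of detected probes at least 1.5-fold apart (x axis, count) for each pair of arrays (y axis), with repeat arrays of the same sample in grey and arrays of different samples in red. The repeat arrays of 2i-RFP+ are 401 probes apart, more than the 285 and 343 that separate its array B from the arrays of 2i-RFP-.

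A difference of at least 2-fold was found for 3 probes higher in 2i-RFP+ (0.015% of those compared) and 1 lower (0.005%). The 3 probes are those of Cdkn1c, Slc22a18 and Phlda2, which lie side by side on chromosome 7. Slc22a18 was no longer among them without background correction, at 0.74, or without array A of 2i-RFP-, at 0.97. In the authors' deposited table, which averages it with an undetected probe, it was at 0.30. By a wider rule, at least 1.5-fold with both arrays of 1 sample above both of the other, 44 probes were higher (0.22%) and 37 lower (0.185%). Most of these 81 probes were dim. The mean level was under 7 for 66 of them, and 13 were detected in only 1 of the samples. The spread of all differences narrowed with level, from an SD of 0.210 under a level of 7 (7668 probes) to 0.15 between 7 and 10 (7484) and 0.101 above 10 (4830). Without background correction, 12 probes were higher and 2 lower by the wider rule, all 14 of them among the 81. The 12 cover Cdkn1c, Phlda2, Slc22a18, Ccl4, Fgf8, Wnt8a with both its probes, Sp5, Fgf5, Plpp5 and a pair of transcripts without a gene name, and the 2 are Alpk3 and Mest.

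**Figure D2:**
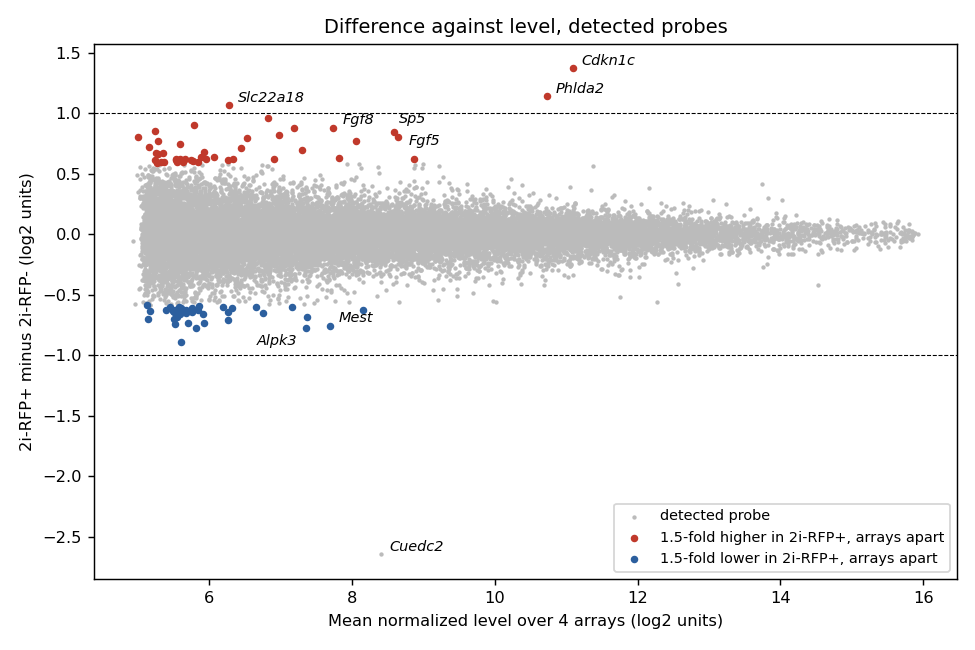
Difference between 2i-RFP+ and 2i-RFP- (y axis, log2 units) against mean level over the 4 arrays (x axis, log2 units) for the 19982 detected probes, with probes that passed the 1.5-fold rule in red and blue and dashed lines at 2-fold. Cdkn1c and Phlda2 stand above the 2-fold line at levels where the SD of all differences is 0.101, and Cuedc2 lies at -2.64 because of 1 array.

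Cdkn1c, which encodes the cyclin-dependent kinase inhibitor p57 and restrains growth, was the gene furthest apart in the higher direction. Its bead intensity was 3533 and 3690 on the arrays of 2i-RFP+ and 1364 and 1430 on those of 2i-RFP-, beside 5306 in AFF204#21 and 3443 in R1. On the log2 scale these are 11.77 and 11.78 against 10.33 and 10.48, with 12.39 and 11.76 in the standard-derived lines. Thus 2i-RFP- lay below all other samples and 2i-RFP+ at the level of R1. The gap between the samples, 1.37 with array pairs from 1.29 to 1.46, was far wider than that between repeat arrays, 0.01 and 0.16.

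Phlda2, whose product limits placental growth, and Slc22a18, which encodes a membrane transporter of the organic cation family, showed the same order. Phlda2 read 11.38 and 11.22 in 2i-RFP+, 10.14 and 10.19 in 2i-RFP-, 12.28 in AFF204#21 and 12.53 in R1. Slc22a18 read 6.79 and 6.84, 5.65 and 5.85, 7.26 and 7.14. For both genes the arrays of the samples did not overlap, and 2i-RFP+ lay between 2i-RFP- and the standard-derived lines. Their folds were 2.20 and 2.09. Slc22a18 is the member just inside the 2-fold limit and Ccl4, at 1.95, the one just outside.

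The start regions of Phlda2 and Slc22a18 are shown because these neighbours differed together between the samples, and CG pairs are the sites at which imprinted genes can be methylated. Each covers 250 bases before to 50 after the gene's start in RefSeq (GRCm38.p6), 5′ to 3′ on the gene's strand, with CG in capitals. Phlda2 lies at chr7:143502475-143502774 on the minus strand and Slc22a18 at chr7:143473539-143473838 on the plus strand.
Phlda2: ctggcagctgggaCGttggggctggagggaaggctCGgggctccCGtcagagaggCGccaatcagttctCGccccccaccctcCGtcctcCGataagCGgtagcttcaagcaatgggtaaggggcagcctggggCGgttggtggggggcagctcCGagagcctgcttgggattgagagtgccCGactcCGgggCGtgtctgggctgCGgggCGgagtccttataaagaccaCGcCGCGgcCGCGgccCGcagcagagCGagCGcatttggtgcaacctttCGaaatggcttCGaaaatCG
Slc22a18: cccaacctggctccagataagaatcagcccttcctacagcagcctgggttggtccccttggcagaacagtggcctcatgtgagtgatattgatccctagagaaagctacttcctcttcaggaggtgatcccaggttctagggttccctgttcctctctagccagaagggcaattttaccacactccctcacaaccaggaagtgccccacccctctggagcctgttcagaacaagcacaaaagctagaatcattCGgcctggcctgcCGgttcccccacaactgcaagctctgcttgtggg
Phlda2 holds 26 CG pairs, more than or as many as 84.6% of 27025 such windows, and Slc22a18 holds 2, against a median of 7. Methylation was not measured here, so these counts describe the sequence only. No window for Cdkn1c was used.

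The other genes of the cluster differed by less. Its list, with Cdkn1c, Phlda2 and Slc22a18 included, has 16 detected probes of 13 genes. Of these probes 11 lay above 0, where 50.4% of all probes did. Both 2i-RFP+ arrays exceeded both 2i-RFP- arrays for 9 of them (19.3% of all probes) and lay below for 3 (17.2%). The 3 probes past 2-fold count among the 11 and the 9, so these numbers do not describe the other genes alone. The list's median difference, with the same 3 included, was 0.13, beside 0.0012 over all probes. Next to Phlda2, the nucleosome assembly gene Nap1l4 was at 0.08 and the cysteinyl-tRNA synthetase gene Cars at 0.03, and further on the lipid transfer gene Osbpl5 was at 0.14. Between Cars and Osbpl5, Tnfrsf22 was at 0.40 and -0.05 by its detected probes. On the other side of Cdkn1c, Tssc4 was at 0.29 and -0.02. For the first probe of each of this pair the arrays of the samples did not overlap. Among the 12 detected genes on either side of Cdkn1c, only Slc22a18 and Phlda2 passed 1.5-fold.

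Kcnq1ot1, the silencing RNA of the cluster and the nearest detected gene on the other side of Cdkn1c, lay in the opposite direction. It read 6.60 and 6.55 in 2i-RFP+, 6.97 and 7.02 in 2i-RFP-, 5.51 in AFF204#21 and 5.82 in R1. Its difference was -0.42, with array pairs from -0.46 to -0.37. Across the 4 samples it was highest in 2i-RFP-, where Cdkn1c, Phlda2 and Slc22a18 were lowest. The probe carries an older name of this gene in the file. Ascl2, a placental transcription factor of the same cluster, was at -0.29 and 0.20 by its 2 detected probes, and Tspan32, a tetraspanin gene, at -0.20. The neighbouring H19 and Igf2 domain, where a growth factor and a long RNA share an imprint, gave 5 of 5 probes above 0 with a median of 0.13. H19 was at 0.03 and 0.13 and Igf2 at 0.25.

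**Figure D3:**
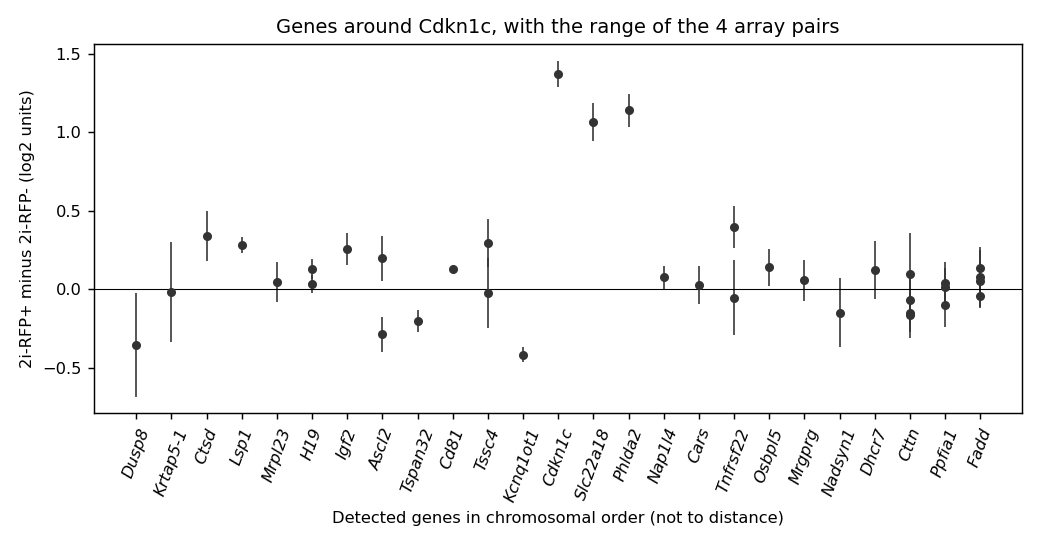
Difference between 2i-RFP+ and 2i-RFP- (y axis, log2 units) for detected genes in their order along chromosome 7 around Cdkn1c (x axis, not to distance), 1 point per probe, with bars from the lowest to the highest of the 4 array pairs. Cdkn1c, Slc22a18 and Phlda2 lie at 1.37, 1.06 and 1.14, Kcnq1ot1 beside them lies at -0.42, and all others lie between -0.35 and 0.40.

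Imprinted genes outside these domains showed no common lean. Of their 49 detected probes 22 lay above 0, and the median was -0.03, with 1 probe past 1.5-fold in each direction. On the higher side 13 did not overlap (19.3% of all probes) and on the lower side 13 (17.2%). Mest, a paternally expressed gene of the hydrolase fold family, was lower in 2i-RFP+ by all 3 of its detected probes, at -0.75, -0.56 and -0.46. The first of them read 7.25 and 7.39 against 8.11 and 8.04, with 7.82 and 7.94 in the standard-derived lines. The arrays of the samples did not overlap for any of the 3. Snrpn, a paternally expressed splicing gene, was at -0.55 and -0.42, and Impact, a paternally expressed regulator of translation, at -0.41. Peg3, a paternally expressed zinc finger gene, read 11.54 and 11.44 in 2i-RFP+ and 12.07 and 11.95 in 2i-RFP-, far above the 9.68 of AFF204#21 and 9.32 of R1. Its probes lay at -0.52 and -0.53.

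In the other direction, Grb10, a maternally expressed adaptor that dampens insulin and growth factor signalling, was at 0.61 and 0.41. The first probe read 6.06 and 6.11 in 2i-RFP+ and 5.49 and 5.46 in 2i-RFP-. The second read 10.42 and 10.75 against 10.17 and 10.17, with 12.50 in AFF204#21 and 11.82 in R1, so that both 2i-derived samples lay far below the standard-derived lines. Probes were also set apart by the parental allele that is known to be expressed, a split chosen after the values were seen. Paternally expressed genes had 17 of 22 detected probes below 0 with a median of -0.16. Of these, 10 did not overlap in that direction (17.2% of all probes). Maternally expressed genes had 17 of 28 above 0 with a median of 0.08. Outside the Cdkn1c cluster this was 10 of 18, with a median of 0.04.

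Genes of the primed epiblast and the primitive streak formed the other group among the probes higher in 2i-RFP+. Fgf5, the growth factor that marks the primed state, read 9.06 and 9.03 in 2i-RFP+ and 8.18 and 8.31 in 2i-RFP-, beside 6.69 in AFF204#21 and 6.94 in R1. Fgf8, a growth factor of the streak, read 8.31 and 8.05 against 7.35 and 7.26, beside 5.43 and 7.18. Both 2i-derived samples exceeded both standard-derived lines for these genes, and 2i-RFP+ was the higher of the pair, at differences of 0.80 and 0.88. For Fgf8, though, 2i-RFP- exceeded the 1 array of R1 by less than the repeat arrays of 2i-RFP+ differed. Wnt8a, a WNT ligand of the posterior epiblast, was higher by both its probes, at 0.88 and 0.82. The first read 7.66 and 7.60 against 6.66 and 6.85, with 6.59 and 5.73 in the standard-derived lines.

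The transcription factors of the group were dimmer. T, the mesoderm factor Brachyury, read 6.13 and 6.36 in 2i-RFP+ and 5.55 and 5.14 in 2i-RFP-, where 1 of 2 arrays detected it, beside 6.17 in AFF204#21 and 7.33 in R1. Its difference was 0.90, with array pairs from 0.58 to 1.23. Eomes, which acts in the streak and in trophoblast, read 6.93 and 6.94 against 6.00 and 6.29, a difference of 0.79, but its other detected probe lay at 0.05. Sp5, a zinc finger factor switched on by WNT signals, was brighter and tighter, at 9.02 and 9.01 against 8.15 and 8.19. Its difference was 0.85 with array pairs from 0.82 to 0.87. Here the order was that of Phlda2, since AFF204#21 read 10.40 and R1 10.44.

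The start regions of Sp5 and T are shown because both genes are known targets of WNT signals, which act through TCF and LEF factors. The core of their motif, CTTTGA, was searched on both strands of the same 300-base windows and is in capitals, with TCAAAG marking a match on the other strand. Sp5 lies at chr2:70474673-70474972 and T at chr17:8434173-8434472, both on the plus strand of GRCm38.p6.
Sp5: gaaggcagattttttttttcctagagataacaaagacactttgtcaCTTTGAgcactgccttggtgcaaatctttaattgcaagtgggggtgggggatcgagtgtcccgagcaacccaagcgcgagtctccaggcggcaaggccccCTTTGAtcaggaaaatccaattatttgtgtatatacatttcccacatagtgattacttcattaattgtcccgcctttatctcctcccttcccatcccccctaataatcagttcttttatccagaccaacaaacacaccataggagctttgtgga
T: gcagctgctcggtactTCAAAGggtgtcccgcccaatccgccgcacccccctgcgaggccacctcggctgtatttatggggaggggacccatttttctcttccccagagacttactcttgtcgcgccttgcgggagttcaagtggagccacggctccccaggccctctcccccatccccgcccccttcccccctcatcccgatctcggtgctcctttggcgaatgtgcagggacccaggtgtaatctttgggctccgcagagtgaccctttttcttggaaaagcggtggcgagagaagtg
Sp5 holds 2 matches and T holds 1, where 16.2% of 27025 windows hold at least 1 and 1.81% at least 2. A match describes the letters and is no evidence of binding. No match was found in the windows of Phlda2 and Slc22a18.

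As lists these genes leaned the same way. The primed epiblast list had 12 of 15 detected probes above 0 (50.4% of all probes) and a median of 0.16. Of the 15, 8 did not overlap on the higher side (19.3% of all probes) and 2 on the lower side (17.2%). Among its other members, Otx2, a homeobox factor that drives the move to the primed state, was at 0.27, and the DNA methyltransferase gene Dnmt3b at 0.16 and 0.04. The mesoderm and primitive streak list had 8 of 10 above 0, 6 and 0 not overlapping, and a median of 0.17. Bmp4, a signal that induces mesoderm, was at 0.43, reading 9.30 and 9.23 against 8.80 and 8.86, far below the 10.90 and 11.97 of the standard-derived lines. WNT targets had 9 of 12 above 0, 5 and 0 not overlapping, and a median of 0.08, with the feedback inhibitor Axin2 at 0.31 and Tcf7, a TCF factor, at 0.31 and -0.28. All 3 lists hold T, and Fgf8 is in both of the others, so the counts are not separate evidence. The lists also hold 3, 3 and 2 probes that passed the 1.5-fold rule, and these count in each lean. Targets of FGF and ERK feedback had 12 of 19 above 0 and a median of 0.03.

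**Figure D4:**
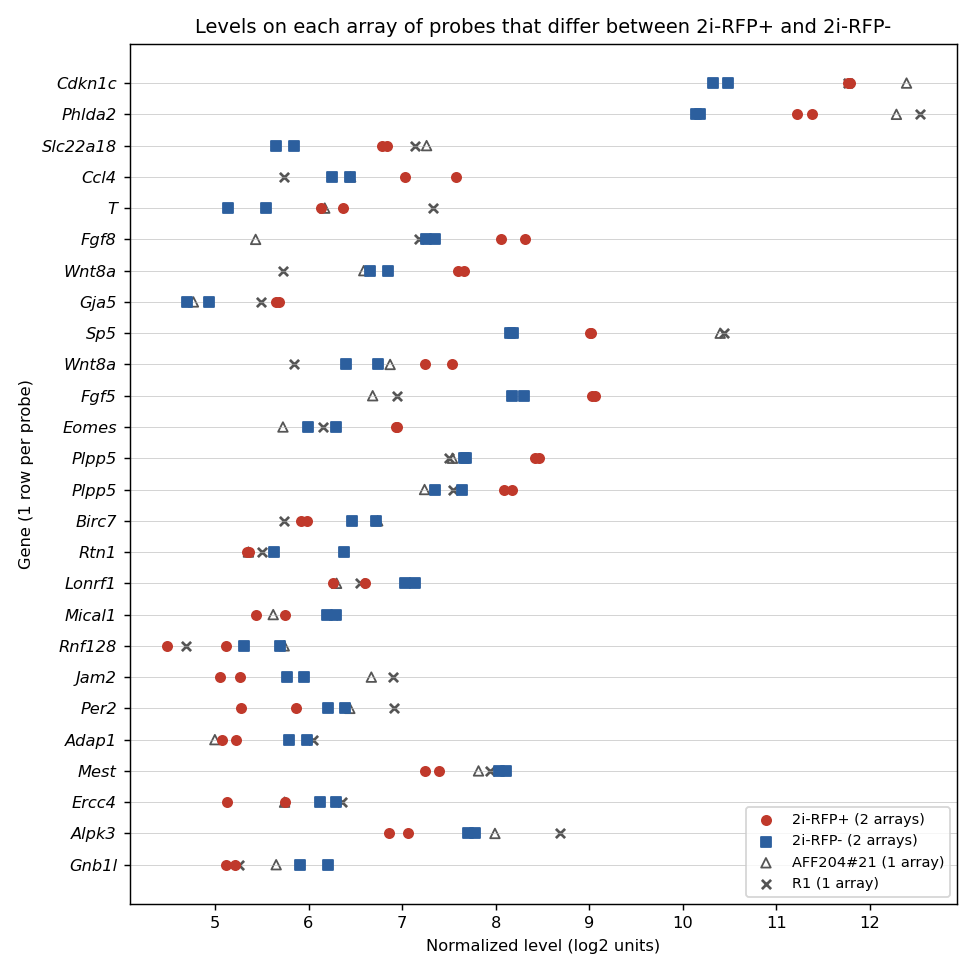
Level on each array (x axis, log2 units) of the probes of the genes furthest apart in each direction (y axis, 1 row per probe), with red circles for 2i-RFP+, blue squares for 2i-RFP-, open triangles for AFF204#21 and crosses for R1. Phlda2, Slc22a18 and Sp5 are highest in the standard-derived lines, while Fgf5 and Fgf8 are highest in 2i-RFP+.

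Naive pluripotency genes leaned to the opposite side by small amounts. Of 25 detected probes 21 lay below 0, and the median was -0.12, or -0.068 with median scaling. None passed 1.5-fold, but by that rule only 0.22% of all probes were higher and 0.185% lower. On the lower side 15 did not overlap (17.2% of all probes) and on the higher side 1 (19.3%). Klf4, a naive state factor, was at -0.51 by its brightest probe, reading 8.88 and 9.57 against 9.70 and 9.76, so that much of the gap came from array A of 2i-RFP+. Its other probes lay at -0.06 and -0.23. Tbx3, a T-box factor that supports self-renewal, was at -0.31, -0.29 and -0.02. Nanog was at -0.24 and -0.05, the orphan receptor gene Esrrb at -0.12 and Zfp42, a standard marker of undifferentiated cells, at -0.20.

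The core factors did not share this lean. Pou5f1, which encodes Oct4, was at -0.02 and 0.03 by the probes detected, and the core list had 14 of 28 probes above 0 with a median of 0.0037, or -0.0012 as means per target name and 0.044 with median scaling. Sox2 was at -0.03 and -0.32. All 10 stem cell markers were detected, and their summed level was 94455 and 94096 in 2i-RFP+ and 93759 and 95728 in 2i-RFP-. The arrays of the samples overlapped in this sum, in which the brightest genes weigh most. By the brightest probe of each gene, 2 of the 10 lay above 0, with a median of -0.04.

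Prdm1, which encodes Blimp1, the germ cell regulator named in the series title, did not separate the samples. It read 6.86 and 6.69 in 2i-RFP+ and 6.83 and 6.65 in 2i-RFP-, above the 5.35 of AFF204#21 and 4.81 of R1. The repeat arrays differed more than the samples. Dppa3, a maternal and germ cell factor, was at -0.06, and Prdm14, a factor of both naive and germ cells, at -0.32 near the detection limit. The germ cell list had 14 of 30 detected probes above 0 and a median of -0.01, or 0.03 when arrays were scaled by their medians instead. All 7 germ cell markers were detected, with a summed level of 14411 and 15852 in 2i-RFP+ and 16275 and 16438 in 2i-RFP-. The arrays of the samples did not overlap in this sum. By the brightest probe of each gene, 2 of the 7 lay above 0, with a median of -0.06.

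Among the remaining genes higher in 2i-RFP+, Ccl4, a chemokine, read 7.58 and 7.03 against 6.44 and 6.25. Its other detected probe lay at -0.28, on the opposite side. A dim probe of Gja5, a gap junction gene, was detected in 2i-RFP+ and not in 2i-RFP-, so this probe was at least 1.37-fold higher. Another probe of Gja5, detected on 1 array of each sample, was at -0.09. Plpp5, a lipid phosphatase gene listed under an older name, was higher by both its probes, at 0.77 and 0.63, reading 8.47 and 8.42 against 7.68 and 7.66 by the first.

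Genes lower in 2i-RFP+ were mostly dim, and other probes of the same gene often read close to 0. Alpk3, a kinase gene of muscle, read 6.87 and 7.06 in 2i-RFP+ and 7.71 and 7.78 in 2i-RFP-, beside 7.99 in AFF204#21 and 8.69 in R1. Here 2i-RFP+ lay below every other sample, at a difference of -0.78. Gnb1l was at -0.89, and its other detected probes lay at 0.03 and 0.17. Ercc4, a DNA repair nuclease gene, was at -0.77 with others at -0.15 and -0.13, and Adap1 at -0.74 with another at -0.02. The clock gene Per2 was at -0.73 with another at 0.00, and the junction gene Jam2 at -0.70, with its other detected probes from -0.31 to 0.10. Rnf128, a ubiquitin ligase gene, was not detected in 2i-RFP+ and was at least 1.25-fold lower there. Of the 57 named genes past the 1.5-fold rule, 30 had more than 1 detected probe, and in 17 of them all probes lay on the same side of 0.

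Cuedc2, the only gene past 2-fold on the lower side, owes its place to 1 array. It read 4.28 and 9.89 in 2i-RFP+ and 9.64 and 9.82 in 2i-RFP-, beside 9.91 in AFF204#21 and a similar level in R1. The intensity behind the first value was 9.6 beside 1018 on the repeat array, although 57 and 53 beads carried the probe. Without that array its difference was 0.16 instead of -2.64, and without the repeat array it was -5.45. The genes just outside the limit on this side were Gnb1l and Alpk3.

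Fibroblast genes were slightly higher in 2i-RFP+. Of 30 detected probes of the feeder list 28 lay above 0, and the median was 0.13. On the higher side 16 did not overlap (19.3% of all probes) and on the lower side 1 (17.2%). Dcn, a proteoglycan of connective tissue, was at 0.40 and 0.26, the surface marker Thy1 at 0.33 and the smooth muscle actin gene Acta2 at 0.34, 0.32 and 0.13. The collagen gene Col1a1 was at 0.12 and the fibronectin gene Fn1 at 0.07 by its brightest probe and -0.29, 0.11 and 0.02 by the others. The 13 detected of 14 feeder markers, all but Postn, summed to 15138 and 16217 in 2i-RFP+ and 13960 and 12727 in 2i-RFP-, with 15631 in AFF204#21 and 19865 in R1. In such bulk samples more feeder cells and more RNA per feeder cell cannot be told apart, nor can fewer and less. Whether feeder cells or the stem cells made these transcripts was not tested.

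Hox genes and neural genes lay on the same side as the feeder genes. The Hox list had 15 of 16 detected probes above 0, 8 not overlapping on the higher side (19.3% of all probes), and a median of 0.16. Hoxc9 was at 0.57, Hoxb7 at 0.47 and 0.14, Hoxb4 at 0.43 and Hoxb9 at 0.36, all positional genes of the trunk. Levels of Hoxc9 were 6.98 and 7.24 in 2i-RFP+, 6.65 and 6.44 in 2i-RFP-, 6.58 in AFF204#21 and 7.24 in R1. All 6 detected neural probes lay above 0 with a median of 0.31, and Nes, an intermediate filament of neural precursors, was at 0.31 and 0.32. The part of feeder RNA in these values, and in those of the streak genes, was not tested. Nor was it tested for Cdkn1c, Phlda2, Slc22a18 and the other imprinted genes. No probe of the Hox or neural list passed 1.5-fold. By that rule 0.22% of all probes were higher and 0.185% lower, so this does not set the lists apart.

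Several markers of other embryonic lineages were not detected. Of 6 primitive endoderm markers, Foxa2, Gata4 and Sox17 were not detected, and the rest summed to 1077 and 1079 in 2i-RFP+ and 925 and 969 in 2i-RFP-. The trophectoderm marker Elf5 was not detected, and the other 5 summed to 973 and 944 against 895 and 906, beside 6776 in AFF204#21. This sum holds the Eomes probe at 0.79 described above, so it does not describe the other trophectoderm markers alone. By the brightest probe of each gene, 3 of the 5 lay above 0, with a median of 0.09. Of 6 markers of the 2-cell-like state 2 were detected, but a marker without a named probe on the array also counts as not detected. The wider 2-cell-like list had probes for 7 of its 12 genes. The mitotic cell cycle list had 19 of 50 probes above 0 with a median of -0.02, or 0.02 with median scaling, and that of CDK inhibitors, in which Cdkn1c was the only member past 1.5-fold, 10 of 21 with a median of -0.03.

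**Figure D5:**
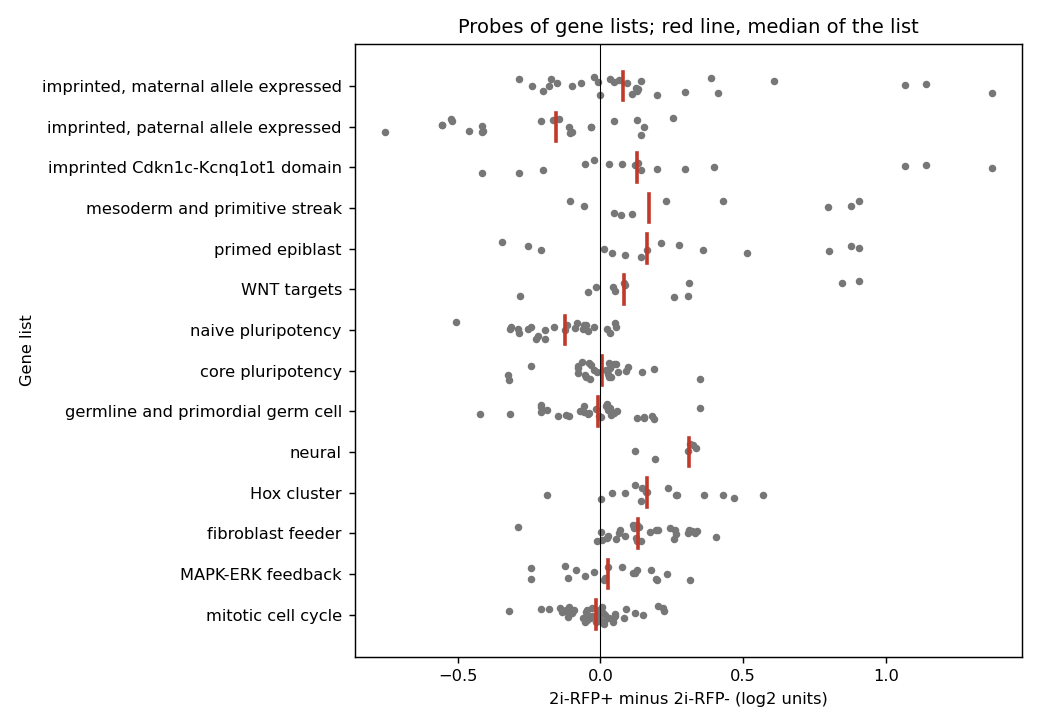
Difference between 2i-RFP+ and 2i-RFP- (x axis, log2 units) for each detected probe (grey points) of gene lists (y axis), with the median of each list as a red line. Medians run from -0.16 for paternally expressed imprinted genes to 0.31 for neural genes, and among the lists plotted the points past 0.6 belong to imprinted, epiblast, streak and WNT genes.

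Whole chromosomes and genes of the sex chromosomes differed little. Median differences ran from -0.01 on chromosome 18 to 0.02 on chromosomes 8, 15 and Y, and chromosome 7 gave 0.01 over 1018 probes. With median scaling they ran from 0.017 to 0.045, and the 4 probes of the Y gave 0.092 as means per target name. Xist, the long RNA that silences an X chromosome in female cells, read 8.82 and 8.67 in 2i-RFP+ and 8.60 and 8.68 in 2i-RFP- by its brightest probe, beside 6.63 in AFF204#21 and 6.73 in R1. The Y-linked translation factor gene Eif2s3y read 6.04 and 6.47 against 6.18 and 5.81, beside 10.32 and 11.07. By these probes the 2i-derived samples overlapped each other and lay far from the standard-derived lines. Ddx3y, a Y-linked RNA helicase gene, was brighter, at 9.35 and 9.31 against 9.25 and 9.20, beside 10.47 and 11.59. Its arrays did not overlap, at a difference of 0.11. Over the 16 detected probes of X and Y marker genes, 2 did not overlap on the higher side (19.3% of all probes) and 2 on the lower side (17.2%).

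Of the 44 probes higher by the 1.5-fold rule, 4 were higher still in both standard-derived lines and 9 were lower there than in both 2i-derived samples. For the 37 lower probes these numbers were also 4 and 9. The same counts were not made over all detected probes, so these numbers do not set the called probes apart.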

How the data were processed

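Biotin-labelled copies of total RNA were read on Illumina bead arrays, per the labels' protocols. The deposited intensity averages the beads of each probe on each array and was exported from GenomeStudio 1.0.6 without normalization, per the file headers. A deposited detection score between 0 and 1, a fraction that is higher for brighter probes, and a bead number stand beside it. A deposited table of log2 values, 1 row per target name, served as an alternative. No source used here gives its method, but its values for the 2i-derived samples follow quantile-normalized log2 intensity averaged over all probes and both arrays (r of 1 across 31458 targets, which are not independent replicates), uncentred, with medians of 5.91 and 5.91.

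Here all 6 arrays were background corrected from 1 minus the detection score, then quantile normalized and logged to base 2, with an offset of 16, by the neqc function in limma 3.58.1 under R 4.3.3. Tables were handled with pandas 2.3.3 in Python 3.11.15. The 1.5-fold rule was tested on simulated arrays with known differences, which checks the counting and not the samples. A probe was compared where its detection score reached 0.95 on at least 2 of the 4 arrays. A probe undetected on both arrays of a sample has only a bound there, set by the lowest detected level of each array or the probe's own level where higher. The number of arrays limits the precision. No source used here gives slide or scan date.

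Target names matched a current symbol for 13427 of 31490 names and a unique synonym for 2502. Another 15536 kept the file's name, and 25 had become dates or numbers and were not named. Positions come from RefSeq on GRCm38.p6, and no source used here names the probes' own build. Windows around gene starts were looked up for 8 genes and found for 6.

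Named genes are the 12 furthest apart in each direction with arrays that do not overlap, every gene past 2-fold and the 2 on either side of that limit, up to 4 members of each of 30 gene lists, a short list of stem cell, germ cell, imprinted, sex and feeder genes, and the probes with the widest gaps between repeat arrays. The samples, gene lists and rule were chosen with earlier results of these data known. Alternatives covered the background correction, the normalization, the filter, single arrays, and values per target name.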

Additional observations from a re-analysis of the deposited data

How the results depend on the processing

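With 1 sample on each side, no alternative adds a replicate, and dim probes limit every count given here. No paired analysis was possible because each side has 1 sample and the letters A and B mark repeat arrays of it. Without background correction the 1.5-fold rule gave 12 higher and 2 lower probes instead of 44 and 37. At least 2-fold higher were 2 probes without background correction and 2 targets in the deposited table, instead of 3. Probes detected on all 4 arrays gave 26 and 21, and 0 at least 2-fold lower. Within array letter A, 8 probes were at least 2-fold higher and 12 lower, with 166 and 285 past 1.5-fold, and within letter B these numbers were 8, 6, 203 and 140. Leaving out each array in turn gave 4 to 7 probes at least 2-fold higher and 1 to 6 lower, 79 to 124 and 74 to 205 past 1.5-fold, and a root mean square difference of 0.186 to 0.216. Cuedc2, at -2.64 over all arrays, reversed to 0.16 without array A of 2i-RFP+ and to 0.064 within letter B, and read -5.45 without array B. Leaving out its probe, an alternative chosen after seeing the data, gave a root mean square difference of 0.166 instead of 0.167. Of 348 values of named probes 277 stayed within the spread of the repeat arrays, 69 moved by more in the same direction and 2 reversed. The 277 overstate the stability. A change of the filter cannot alter a probe's value, so those values were bound to stay. Leaving out an array counted even Rtn1 as within the spread, at -0.27 without array B of 2i-RFP- instead of -0.65. Of 90 list medians 75 moved by less than the spread and 15 by more. The medians of the germ cell, DNA methylation, Polycomb, heat shock and mitotic lists changed sign with median scaling, and those of the core pluripotency and amino acid lists as means per target name. Of 63 chromosome medians 24 moved by more than the spread, and with median scaling those of chromosomes 1, 9, 16, 17 and 18 changed sign. The cause of these moves was not tested.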

Other observations

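Medians of several other gene groups ran from -0.07 to 0.14. Genes of sterol synthesis had 22 of 35 detected probes above 0 and a median of 0.03, with Sc5d at 0.41 and Insig1, a brake on the pathway, at 0.40, -0.03 and -0.11. Immediate early genes, which respond within minutes to growth factors, had 11 of 14 above 0 and a median of 0.14, with Klf6 at 0.38 and 0.11 and Fos at 0.20. Glycolysis and hypoxia genes had 29 of 42 below 0 and a median of -0.05, with Pfkl at -0.44 and 0.02 and Pgk1 at -0.33, 0.08 and -0.04. Targets of the LIF and STAT3 pathway, which sustains mouse stem cells in culture, were divided, with 8 of 18 above 0. Among them the kinase gene Pim1 was at -0.45. On the higher side 10 sterol, 5 immediate early, 2 glycolysis and hypoxia and 6 LIF and STAT3 probes did not overlap (19.3% of all probes). On the lower side these numbers were 2, 0, 11 and 7 (17.2%). No probe of these 4 lists passed 1.5-fold, where 0.22% of all probes were higher by that rule and 0.185% lower.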
